A study of Mus musculus with 4 samples.

Results

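Nuclear-encoded oxidative phosphorylation genes were taken as every symbol of the deposited gene list that begins with Nduf followed by a, b, c, s or v, with Uqcr, with Cox4 to Cox8 or with Atp5, together with Sdha, Sdhb, Sdhc and Sdhd. The rule gave 92 of 27998 genes: 45 for complex I, 4 for complex II, 8 for complex III, 18 for complex IV and 17 for complex V. Of these, 82 were counted as subunits. The other 10 were the 7 Ndufaf assembly factors of complex I, Cox7a2l, Atp5s and Atp5sl. The 13 mitochondrially encoded genes of the same machinery, whose symbols begin with mt-, served as the contrast.

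The 5 complexes of oxidative phosphorylation sit in the inner mitochondrial membrane. Complex I takes electrons from NADH and complex II takes them from succinate. Complex III passes them to cytochrome c and complex IV passes them to oxygen, and complex V uses the resulting proton gradient to make ATP. All subunits of complex II are nuclear-encoded, whereas each of the other complexes is built from nuclear and mitochondrial gene products. In T cells this machinery is known to be built up after activation, and in macrophages it differs with the state of activation.

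The data are droplet-based single-cell 3′ counts from 4 libraries of mouse cells, and the titles tell the libraries apart as IgG, Ac, C or aC+C, with 1 library each. The titles call the material immune cells infiltrating a tumor, and the series title calls it tumor-infiltrating CD8+ T cells. The cell type field instead says goblet cells, and the protocol describes epithelium from the flushed intestine of RedMUC298trTg mice, sorted for mCherry. The genotype field holds an age of 6-8 weeks, and the 4 group names are not explained, nor are the tumor, the mouse strain of the tumor bearers, the dose or the time. Nothing says whether a library came from 1 animal or from pooled animals.

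The values went against the label goblet cells. Muc2, the main gel-forming mucin of goblet cells, had 2 to 4 unique molecular identifiers (UMIs) per library, and Ptprc, the common leukocyte antigen CD45, was found in 87.0 to 91.3% of the barcodes kept. A barcode was kept with at least 1000 UMIs and at most 10% mt- UMIs. This left 3436 to 4210 barcodes per library, with median totals of 10492 to 11594.5 UMIs, and libraries shared 2 to 7 of these barcodes per pair. Barcodes were placed in gates by marker genes that include no member and no mt- gene. The gates included CD8 T (677 to 1179 barcodes per library), NK (214 to 532) and monocyte or macrophage (467 to 1303). Others were mesenchymal (124 to 316), Treg, CD4 T, dendritic and B. The mesenchymal gate needed no Ptprc and a minimum for the sum of collagen genes, Dcn, Sparc, Hmga2 and Tm4sf1. A barcode could thus enter it without collagen UMIs. A gate is a range of marker levels and not a cell type, and 15.3 to 28.0% of barcodes were in none. B (5 to 56 barcodes) was not analysed further.

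The members made up 2.13 to 2.24% of all UMIs in the kept barcodes of a library, and the mt- genes 3.30 to 3.69%. Barcodes of 1 to 50 UMIs, which hold free RNA, gave nearly the same member share (2.19 to 2.32%) and a higher mt- share (4.98 to 9.42%). Shares below are UMIs summed over the barcodes of a gate and divided by that gate's total, so barcodes with more UMIs weigh more. Because 1 library stands for each group, the 4 values of a gate come from 4 different treatments.

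The CD8 T gate had the highest member share and the monocyte or macrophage gate the lowest. In the CD8 T gate the share was 2.41% for IgG, 2.51% for Ac, 2.34% for C and 2.56% for aC+C (mean 2.46% ± 0.10, SD, n = 4). In the monocyte or macrophage gate it was 1.98%, 1.90%, 2.01% and 1.93% in the same order (mean 1.96% ± 0.046, SD, n = 4). The lowest CD8 T value was thus above the highest monocyte or macrophage value. The other gates lay between: mesenchymal 2.17 to 2.29%, Treg 2.12 to 2.24%, NK 2.15 to 2.19%, CD4 T 2.06 to 2.24% and dendritic 2.05 to 2.18%. Neighbours among those 5 gates overlapped, so their order was not resolved, while none of them overlapped with CD8 T or with monocytes or macrophages.

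**Figure D1:**
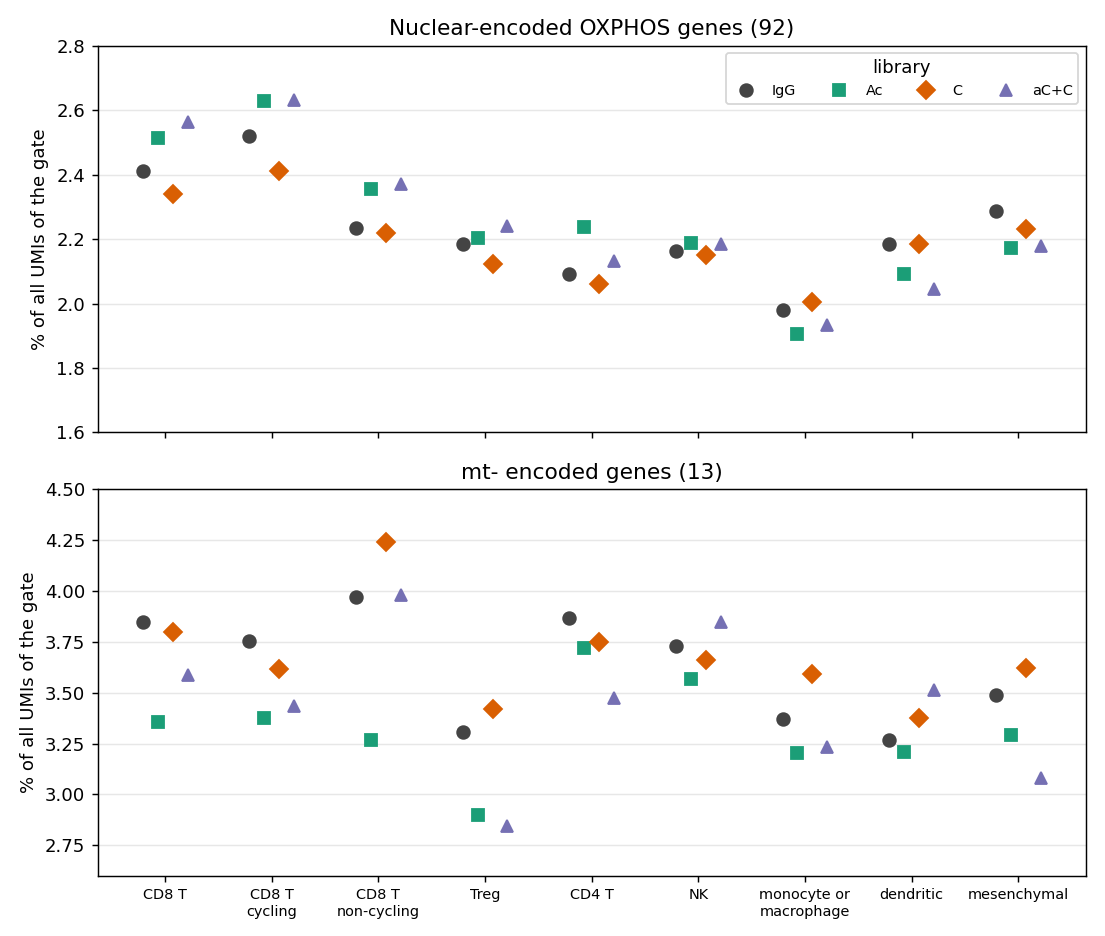
Share of all UMIs of a gate (percent, vertical axis) taken by the 92 nuclear members (top) and by the 13 mt- genes (bottom), 1 point per library and gate. The CD8 T points for the nuclear members, 2.34 to 2.56%, lie above those of every gate other than its own cycling and non-cycling barcodes, and the monocyte or macrophage points, 1.90 to 2.01%, lie below. The non-cycling CD8 T points, 2.22 to 2.37%, overlap with mesenchymal, Treg and CD4 T.

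The mt- genes did not order the gates in that way. They took 3.36 to 3.85% of UMIs in CD8 T, 3.57 to 3.85% in NK, 3.20 to 3.59% in monocytes or macrophages and 2.85 to 3.42% in Treg. In CD8 T the ratio of nuclear to mt- UMIs was 0.627 for IgG, 0.749 for Ac, 0.616 for C and 0.715 for aC+C. In NK it was 0.580, 0.613, 0.588 and 0.568, below CD8 T in each library. The mean ratio over libraries was 0.585 in monocytes or macrophages and 0.707 in Treg. With non-cycling barcodes only, it was 0.563, 0.721, 0.523 and 0.596 in CD8 T and 0.543, 0.590, 0.562 and 0.561 in NK. NK was then above CD8 T in C. Non-cycling monocytes or macrophages, at 0.589, 0.612, 0.569 and 0.610, were above CD8 T in each library but Ac. The filter of at most 10% mt- UMIs bounds the mt- values from above. Across single barcodes of at least 5000 UMIs, the nuclear and the mt- share were weakly and negatively correlated in the CD8 T gate (Pearson r -0.30 to -0.10 by library) and in the NK gate (-0.38 to -0.31). In the monocyte or macrophage gate r was 0.004 to 0.10. The points share a library and both shares have the same total as denominator, so these r values are a description.

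By complex, the ratio of a gate's share to that of CD8 T in the same library showed where the gates parted. In monocytes or macrophages the mean ratio over 4 libraries was 0.793 for complex I, 0.855 for complex III, 0.816 for complex IV and 0.753 for complex V, each below 1 in all 4 libraries. Complex II went the other way, with ratios of 1.08, 1.12, 1.11 and 1.01 in the same order of libraries. In NK all 5 complexes were between 0.861 and 0.903. In the mesenchymal gate complex I stood at 0.959, with 2 of 4 libraries below 1, and complex V at 0.850.

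Known binding motifs of factors linked to respiratory genes were counted in promoters, from 250 bases before to 50 after the start of each gene, with sequences from RefSeq (GRCm38.p6). Of the 92 members, 76 had an entry. The NRF1 motif (GCGCA, any base, GCGC) was in 25% of these 76, the YY1 motif AAGATGGC in 14.5%, the ETS family motif CCGGAAG, which GABPA binds, in 22.4%, and the CCAAT box of NF-Y in 44.7%, on either strand. Among the promoters of all 27025 genes in the table the shares were 5.19%, 3.19%, 9.93% and 41.1%. Among the 10088 other genes with an entry that passed the filter on low counts, they were 11.3%, 5.23%, 20.1% and 43.1%. CCGGAAG and CCAAT were thus about as frequent in members as in other genes measured here, and the counts are a description, with no test. The 250 bases upstream of 4 members that recur below are shown 5′ to 3′ on the strand of the gene, with matches to these motifs on either strand in capitals. Sdhd (chr9:50603850-50604099, minus strand), which was higher in monocytes or macrophages, holds an NRF1 and an ETS match. Uqcrh (chr4:116075071-116075320, minus strand), lower in 3 of the comparisons below, holds a CCAAT and an ETS match. Ndufa4 (chr6:11907451-11907700, minus strand), lower in monocytes or macrophages and in NK, holds none of the 4 motifs in the stretch shown. Cox7a1 (chr7:30183921-30184170, plus strand), an isoform gene with its highest counts in monocytes or macrophages, holds a pair of CCAAT matches. A match is not a site shown to be bound.
Sdhd: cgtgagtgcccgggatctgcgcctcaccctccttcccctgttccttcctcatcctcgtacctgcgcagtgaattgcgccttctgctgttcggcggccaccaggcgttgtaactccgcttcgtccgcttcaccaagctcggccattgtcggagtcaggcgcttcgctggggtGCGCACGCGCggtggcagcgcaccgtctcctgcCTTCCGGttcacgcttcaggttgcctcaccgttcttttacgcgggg
Uqcrh: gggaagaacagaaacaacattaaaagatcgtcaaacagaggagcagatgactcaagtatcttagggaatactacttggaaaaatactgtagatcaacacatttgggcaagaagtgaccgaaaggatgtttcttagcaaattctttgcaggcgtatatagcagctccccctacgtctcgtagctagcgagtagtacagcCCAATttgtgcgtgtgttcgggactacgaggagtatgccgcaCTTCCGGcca
Ndufa4: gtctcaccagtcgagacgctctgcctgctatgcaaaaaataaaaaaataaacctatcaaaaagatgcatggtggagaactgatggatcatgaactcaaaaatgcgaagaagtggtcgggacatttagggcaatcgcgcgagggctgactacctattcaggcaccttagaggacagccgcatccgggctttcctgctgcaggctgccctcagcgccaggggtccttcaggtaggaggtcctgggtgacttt
Cox7a1: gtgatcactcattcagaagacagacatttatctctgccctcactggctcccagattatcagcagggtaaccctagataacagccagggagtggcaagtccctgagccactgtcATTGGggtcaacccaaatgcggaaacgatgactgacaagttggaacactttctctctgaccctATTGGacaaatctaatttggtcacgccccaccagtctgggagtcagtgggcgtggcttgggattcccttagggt

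Each member was then compared between gates with edgeR's quasi-likelihood test on UMIs summed per gate and library, with the library as a block, TMM scaling and Benjamini-Hochberg adjustment over all genes tested. A gene was called at an adjusted p under 0.05. Levels are given as UMIs per 1000000 UMIs of the gate (CPM), as means ± SD over 4 libraries. A log2 fold is the fitted value, which TMM shifts from the ratio of the CPM where the RNA composition of gates differs. Without TMM the median log2 fold of all genes tested was -0.20 for NK, 0.19 for the mesenchymal gate, -0.03 for monocytes or macrophages and 0.02 for cycling barcodes, whereas with TMM it was within 0.04 of 0 in all 4 comparisons. A p-value sets the mean gate difference against its spread over these 4 libraries, estimated in part from all genes. The libraries differ in treatment, so that spread also holds differences between treatments.

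**Figure D2:**
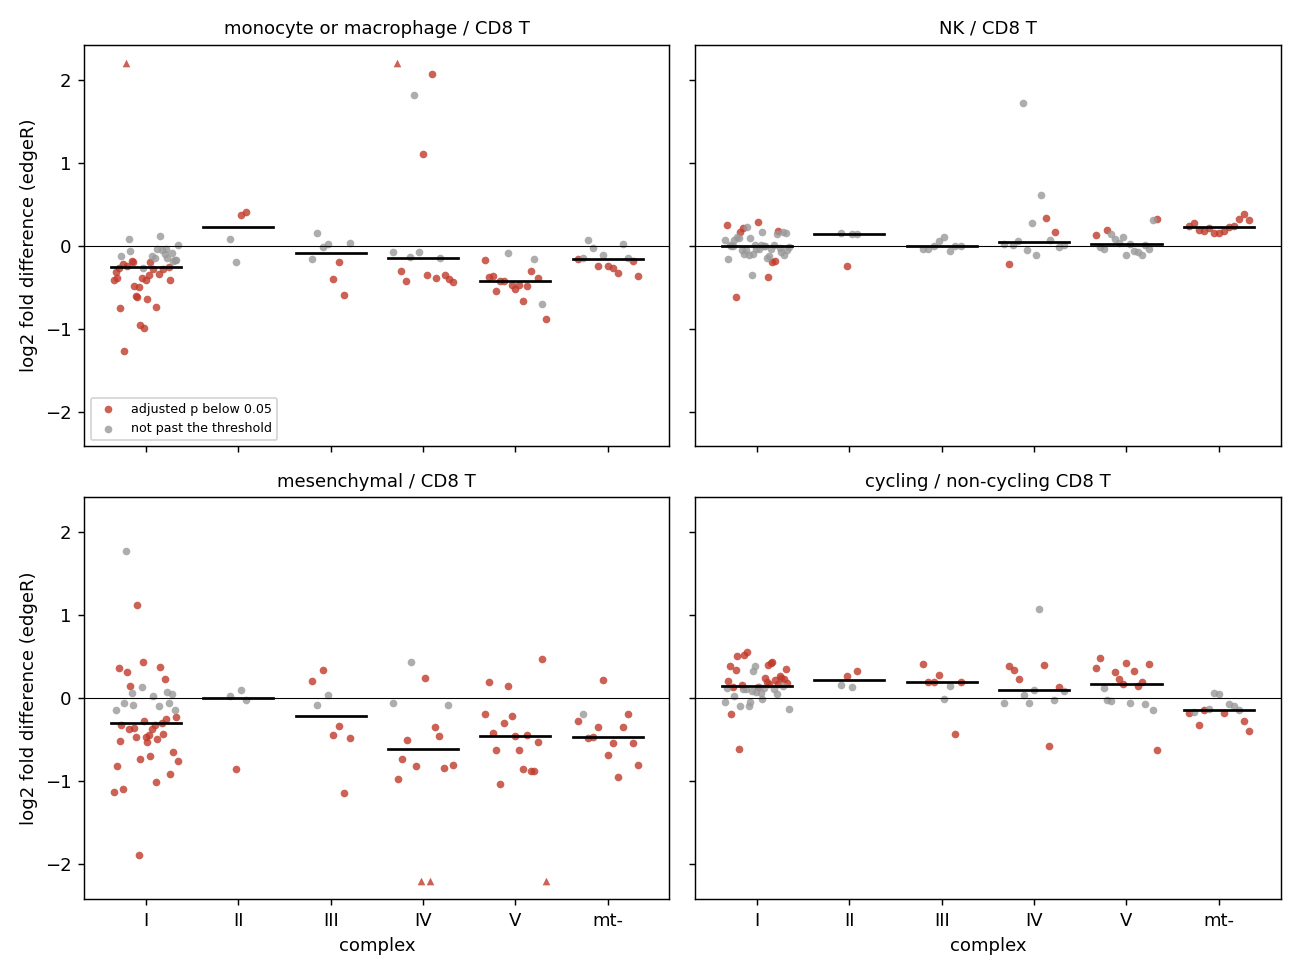
Fitted log2 fold of each tested member (vertical axis) by complex, with the mt- genes apart, in the 4 comparisons. Red points passed the test, grey points did not, black bars are medians and triangles lie beyond the axis. In monocytes or macrophages the median is 0.22 for complex II and -0.43 for complex V.

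In monocytes or macrophages against CD8 T, 51 of 89 tested members were lower, or 57.3%, where 37.6% of all 12952 genes tested were lower. Another 6 were higher, or 6.74%, where 36.5% of all genes were higher. The median log2 fold of the members was -0.27 and that of all genes -0.03. By complex, 27 of 45 members of complex I, 3 of 8 of complex III, 7 of 15 of complex IV and 14 of 17 of complex V fell, and 0 of 4 of complex II. Cycling barcodes made up 31.9 to 40.3% of the CD8 T gate and 7.9 to 9.9% of the monocyte or macrophage gate. With non-cycling barcodes of both gates only, 32 of 89 members were lower and 10 higher, 36.0% and 11.2%, where 34.1% and 34.3% of all genes were. The share of lower members was then close to that of all genes, and the median was -0.12 beside -0.02 for all genes.

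Among the named subunits of complex I, Ndufs1, an iron-sulfur subunit of the arm that takes up electrons, was at 27.6 ± 2.0 CPM in monocytes or macrophages and 33.7 ± 1.0 in CD8 T (log2 fold -0.28, adjusted p 0.011). Ndufa9, an accessory subunit, fell by 0.20 (adjusted p 0.024). Ndufv1, the subunit that binds NADH, did not pass (log2 fold -0.18, adjusted p 0.095). Ndufa4 was long counted with complex I and later found in complex IV. It stood at 184, 144, 202 and 185 CPM in monocytes or macrophages and at 468, 408, 414 and 439 CPM in CD8 T, with the libraries in the order above. The gates were far apart, and the log2 fold of -1.28 (SE 0.092, adjusted p 2.4e-05) was the lowest of the tested members. Of the 7 Ndufaf assembly factors, 6 were lower. Ndufaf7 fell to 11.2 ± 0.57 CPM from 22.3 ± 3.8 and Ndufaf4 to 15.5 ± 1.5 CPM from 30.1 ± 2.2 (log2 folds -0.99 and -0.96, adjusted p 0.0004 and 5.5e-05).

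In complex II, Sdhd and Sdhc, which anchor the complex in the membrane, were higher, and the catalytic subunits Sdha and Sdhb did not pass. The difference between these pairs was not tested. Sdhd was at 135, 137, 133 and 118 CPM in monocytes or macrophages and at 102, 97.5, 98.5 and 99.7 CPM in CD8 T, with no overlap (log2 fold 0.40, SE 0.074, adjusted p 0.0021). Sdhc was at 79.4 ± 3.9 CPM against 61.9 ± 2.9 (log2 fold 0.37, SE 0.064, adjusted p 0.0017). Sdha had a log2 fold of 0.08 (adjusted p 0.28) and Sdhb one of -0.20 (adjusted p 0.066).

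In complex III, Uqcrh, the hinge protein, was the most reduced, with 536, 518, 539 and 553 CPM in monocytes or macrophages against 791, 903, 770 and 808 CPM in CD8 T (log2 fold -0.60, SE 0.075, adjusted p 0.00032). Uqcrfs1, the Rieske iron-sulfur protein, fell by 0.19 (adjusted p 0.028), and Uqcrc1 had a log2 fold of 0.02 (adjusted p 0.81). In complex IV, Cox5a fell by 0.31 (adjusted p 0.0074) and Cox7a2 by 0.39 (adjusted p 0.0029), while the main form of subunit 4, Cox4i1, had a log2 fold of -0.08 (adjusted p 0.36). Cox7a2l, which helps to join complexes III and IV, had a log2 fold of -0.15 (adjusted p 0.056). In complex V, Atp5b, the catalytic beta subunit, was at 442, 416, 490 and 422 CPM against 560, 558, 580 and 620 CPM in CD8 T (log2 fold -0.38, SE 0.081, adjusted p 0.0042). Atp5g3, a gene for the membrane ring, fell by 0.53 (adjusted p 0.00034). Atp5a1, the alpha subunit, was near the threshold (log2 fold -0.18, adjusted p 0.043), and with non-cycling barcodes only its log2 fold was 0.084. The fall of Atp5sl, by 0.89 (adjusted p 0.00014), was the largest under the complex V symbols, and this gene is now known for assembly of complex I. Of the 13 mt- genes, 7 fell and 0 rose. Several of the small falls were not stable: Ndufs1 did not pass without Ac (log2 fold -0.25), Ndufa9 without IgG (-0.17), Ac (-0.20) or aC+C (-0.16), and Uqcrfs1 (-0.19 to -0.17) and Atp5a1 (-0.19 to -0.13) when any 1 library was left out. With non-cycling barcodes only, Atp5b (-0.17), Cox5a (-0.015), Ndufs1 (-0.22), Ndufa9 (-0.13) and Uqcrfs1 (-0.012) did not pass either.

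Minor isoforms were counted separately because they are rare. Cox4i2, the alternative form of subunit 4 known from lung and from low oxygen, had 16, 98, 52 and 98 UMIs in monocytes or macrophages. In CD8 T it had 0, 0, 3 and 2 UMIs. Pooled over libraries this came to 4.98 CPM (exact 95% Poisson interval 4.40 to 5.62) against 0.084 CPM (0.027 to 0.197), and the test was passed (adjusted p 0.00023). NK had 0 UMIs of 22578519. Taking 3 counts as the limit that 0 allows, in place of the Poisson interval, this leaves up to 0.133 CPM. These intervals and limits cover counting error only. In the monocyte or macrophage gate the lists of other cells, summed, were at 5.4 to 8.1 CPM for CD3, at 382 to 854 CPM for mesenchymal genes and at 70.7 to 406 CPM for neutrophil genes. The mesenchymal gate itself had 4 UMIs of Cox4i2.

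Cox7a1, the heart and muscle form, was at 7.02 CPM in monocytes or macrophages (372 UMIs, interval 6.33 to 7.77) and at 1.69 CPM in CD8 T (100 UMIs, interval 1.37 to 2.05, adjusted p 0.0001). Cox6b2, known from testis, was at 4.85 and 2.23 CPM in these gates (adjusted p 0.0043) had 3 UMIs in the mesenchymal gate, and was at 7.99 CPM in the dendritic gate (39 UMIs, interval 5.68 to 10.9). Ndufa4l2, the paralog of Ndufa4, had 0, 31, 10 and 40 UMIs in monocytes or macrophages and passed the test (adjusted p 0.024) although the 4 libraries overlapped with those of CD8 T. Cox6a2, the other muscle form, was highest in the dendritic gate, at 23.0 CPM (112 UMIs, interval 18.9 to 27.6), where each library had 15 or more UMIs, and at 0.590 to 1.699 CPM in CD8 T, NK, mesenchymal and monocyte or macrophage barcodes. Of the 35 UMIs of Cox6a2 in CD8 T, 31 were in aC+C. Cox8b and Cox8c had 0 UMIs in all gates listed, and Cox7b2 had 2.

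**Figure D3:**
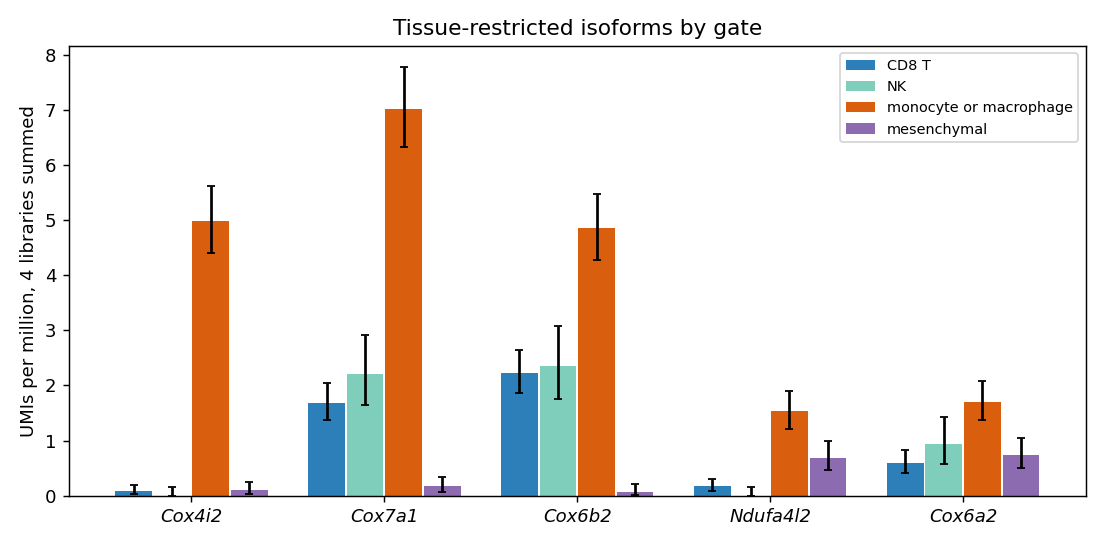
Level of 5 minor isoform genes in 4 gates (CPM of the 4 libraries summed, vertical axis), with exact 95% Poisson intervals as error bars. Of the gates drawn, Cox4i2 and Cox7a1 were highest in monocytes or macrophages, at 4.98 and 7.02 CPM. The dendritic gate is not drawn.

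The c subunit of complex V is encoded by Atp5g1, Atp5g2 and Atp5g3, which give the same mature protein. Atp5g1 made up 22.95 to 25.02% of their summed UMIs in CD8 T, 28.0 to 30.8% in monocytes or macrophages and 28.4 to 31.9% in the mesenchymal gate. In NK it made up 23.3 to 25.8%, which overlapped with CD8 T. The Atp5g1 ranges of monocytes or macrophages and of the mesenchymal gate overlapped with each other and lay above CD8 T. Atp5g3 made up 23.5 to 26.2% in CD8 T and 18.7 to 21.4% in the mesenchymal gate. It made up 20.5 to 22.8% in NK and 21.6 to 22.8% in monocytes or macrophages, so its range over all CD8 T barcodes lay above the others given. In non-cycling CD8 T barcodes Atp5g3 made up 21.8 to 23.3%, which overlapped with NK and with monocytes or macrophages.

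In NK against CD8 T, 6 of 87 tested members were lower and 10 were higher, 6.90% and 11.49%, where 19.9% and 20% of all 11699 genes were called in those directions. The median log2 fold of members was 0.00. On the scale of plain shares the picture differed: without TMM, 52 members were lower and 1 higher, 59.8% and 1.15%, where 36.8% and 12.4% of all genes were. The median was -0.18 beside -0.20 for all genes, so the lower member share of NK went with a shift of all genes. Without the IgG library the total called with TMM was 8 instead of 16. Among the members lower in NK were Ndufa4, Ndufb8 and Ndufc2 of complex I, Sdhb of complex II and Cox5a of complex IV. Of those higher, 5 belonged to complex I, 2 to complex IV and 3 to complex V.

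Ndufa4 was at 252.1, 248.5, 262.2 and 228.8 CPM in NK, between monocytes or macrophages and CD8 T and overlapping with neither (log2 fold -0.62, SE 0.061, adjusted p 9.4e-06). Ndufb8, a subunit of the membrane arm, was at 165, 161, 152 and 154 CPM in NK and at 235, 235, 222 and 237 CPM in CD8 T (log2 fold -0.37, SE 0.053, adjusted p 0.00016). Sdhb, the iron-sulfur subunit of complex II, was at 114 ± 6.9 CPM in NK and 154 ± 11.1 in CD8 T (log2 fold -0.25, adjusted p 0.0027). With non-cycling barcodes only, the log2 fold of Sdhb was -0.15 and that of Cox5a -0.10, and neither passed. Cox7a2 was higher in NK, at 587, 580, 542 and 577 CPM against 503, 531, 464 and 555 CPM in CD8 T, with overlap between libraries but a higher value in NK in 4 of 4 (log2 fold 0.34, SE 0.057, adjusted p 0.00058). Ndufb11 (log2 fold 0.28, adjusted p 0.0013) and Atp5sl (log2 fold 0.32, adjusted p 0.013) were also called higher, but not without TMM, and with non-cycling barcodes Atp5sl had a log2 fold of -0.013. Without IgG, Atp5sl did not pass (log2 fold 0.30).

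The mt- genes parted from the members in NK: 13 of 13 were called higher, with a median log2 fold of 0.22. Without TMM 1 of 13 was called, at a median of 0.04, and with non-cycling barcodes only 2 of 13 were called. mt-Nd5 was at 280, 292, 312 and 325 CPM in NK and at 265, 238, 295 and 259 CPM in CD8 T, higher in NK in each library (log2 fold 0.38, adjusted p 0.00014).

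**Figure D4:**
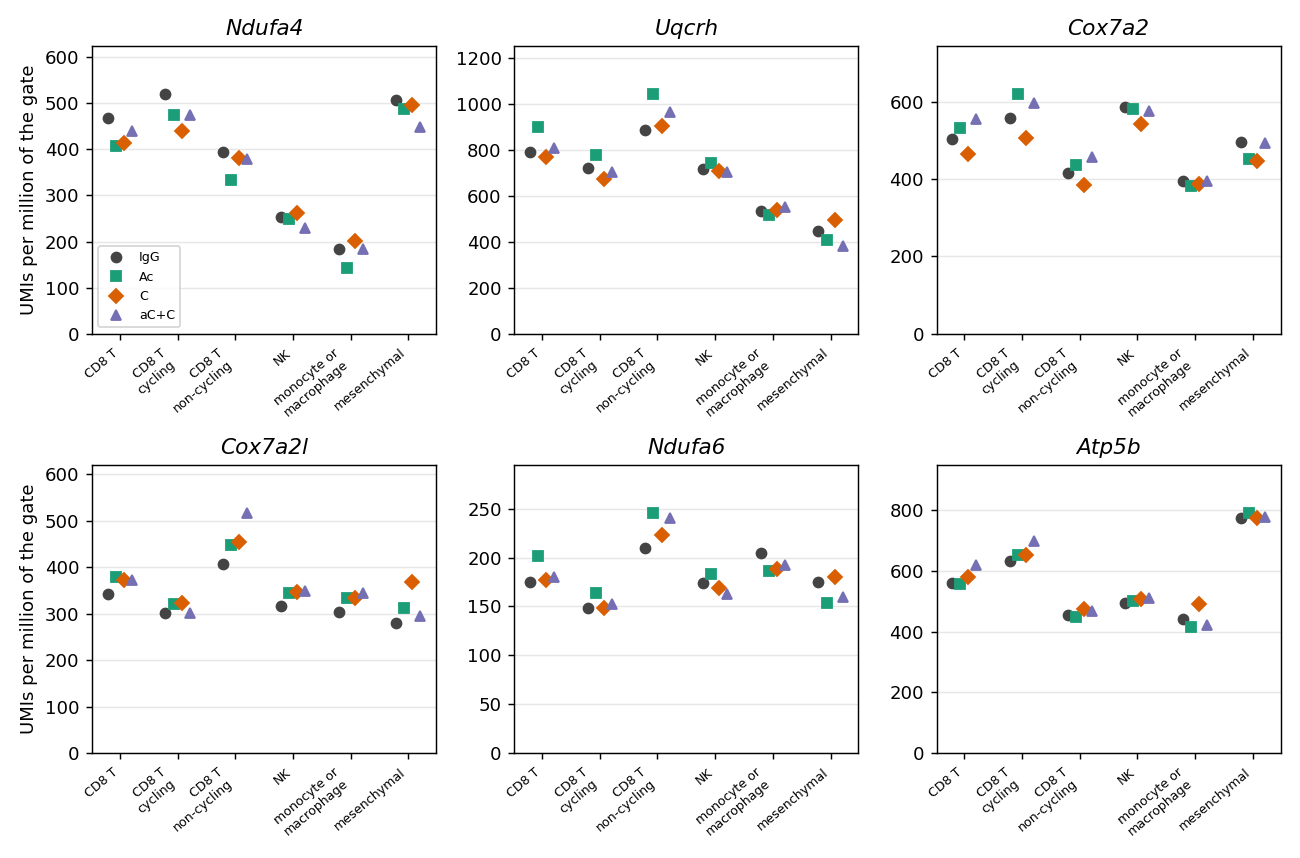
Level (CPM, vertical axis) of 6 members by gate, 1 point per library. Ndufa4 lies at 408 to 468 CPM in CD8 T, at 229 to 262 in NK and at 144 to 202 in monocytes or macrophages. Uqcrh, Cox7a2l and Ndufa6 lie lower in cycling than in non-cycling CD8 T barcodes, and Cox7a2 and Atp5b higher.

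In the mesenchymal gate against CD8 T, 55 of 88 tested members were lower and 13 were higher, 62.5% and 14.8%, where 39.2% and 36.7% of all 12926 genes were called in those directions. The median log2 fold was -0.35. Without TMM, 39 members were lower and 24 higher, 44.3% and 27.3%, where 31.2% and 44.7% of all genes were, and the median was -0.12. Median totals per barcode were 35750 to 55015 UMIs in the mesenchymal gate and 10633 to 13073 in CD8 T. Cycling barcodes made up 46.8%, 49.2%, 32.8% and 56.3% of the mesenchymal gate and 31.9 to 40.3% of CD8 T. No comparison with non-cycling barcodes only was run for this gate. The part of depth and of cycling in the result was not tested.

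Complexes IV and V fell most often, with 10 of 14 and 14 of 17 members lower. Cox5a was at 360, 371, 354 and 412 CPM in the mesenchymal gate and at 628, 612, 585 and 683 CPM in CD8 T (log2 fold -0.97, SE 0.046, adjusted p 1.3e-05). Uqcrh was at 450, 410, 494 and 383 CPM (log2 fold -1.14, SE 0.098, adjusted p 0.00013) and Sdhb at 99.7 ± 6.4 CPM (log2 fold -0.85, adjusted p 0.00012). Atp5e, the epsilon subunit of complex V, was at 550 ± 37.5 CPM and 963 ± 43.6 CPM (log2 fold -1.04, adjusted p 2.6e-05). Atp5b went the other way, with 774 to 791 CPM in the mesenchymal gate (log2 fold 0.20, adjusted p 0.007), as did Uqcrb of complex III (log2 fold 0.34, adjusted p 0.00096). Subunits of 1 complex thus differed in direction.

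The Ndufaf assembly factors split in the mesenchymal gate, with 2 of 7 higher and 4 lower. Ndufaf2, an assembly factor of complex I, was at 79.4, 76.9, 87.25 and 81.85 CPM against 28.8, 31.4, 35.5 and 31.8 CPM in CD8 T (log2 fold 1.13, SE 0.064, adjusted p 2.4e-05). Ndufaf6 was also higher (log2 fold 0.43, adjusted p 0.02), though not without Ac or without aC+C, where its log2 fold was 0.36. Ndufaf3 was at 11.9, 10.96, 14.1 and 11.1 CPM against 37.7 ± 2.8 CPM in CD8 T (log2 fold -1.89, adjusted p 3.9e-05), and Atp5sl fell by 2.66 (adjusted p 1.7e-05). Cox6b2 and Cox7a1, with 3 and 7 UMIs in the gate, were also lower (adjusted p 0.00025 and 0.00043). Atp5s, among the highest called (log2 fold 0.48, adjusted p 0.04), did not pass when any single library was left out. Of the mt- genes 11 of 13 fell and mt-Cytb rose, at 4475, 4035, 4561 and 3837 CPM against 3266, 2680, 3360 and 3091 CPM (log2 fold 0.22, adjusted p 0.0045).

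Within the CD8 T gate, cycling barcodes were compared with non-cycling ones, by the proliferation genes Mki67, Top2a, Birc5, Ube2c and Cdk1. The members took 2.52%, 2.63%, 2.41% and 2.63% of UMIs in cycling and 2.23%, 2.36%, 2.22% and 2.37% in non-cycling barcodes, a mean ratio of 1.11 ± 0.018 (SD, n = 4). Of 86 tested members, 44 rose and 5 fell, 51.2% and 5.81%, where 22.0% and 18.4% of all 10992 genes were called in those directions. The median log2 fold was 0.16. By complex 22 of 44 members of complex I, 2 of 4 of II, 5 of 8 of III, 5 of 13 of IV and 10 of 17 of V rose. Of the 13 mt- genes 6 were lower, 0 were higher and 7 did not pass. Their summed share in cycling over non-cycling barcodes was 0.946, 0.852 and 0.863 in IgG, C and aC+C but 1.03 in Ac.

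Cycling barcodes also held more RNA, with median totals of 17123 to 19719.5 UMIs against 7524 to 9423.5. In the CD8 T gate as a whole the median member share per barcode was higher at greater depth in each library, from 1.82 to 2.22% below 5000 UMIs to 2.39 to 2.64% at 15000 or more. The comparison was therefore repeated with barcodes of 10000 to 20000 UMIs, chosen after the data were seen, which left 82 to 153 cycling and 62 to 151 non-cycling barcodes per library. Median totals were still higher in the cycling ones, 14722 to 15474 against 12082.5 to 12646. In that range 19 of 83 members rose and 7 fell, 22.9% and 8.43%, where 12.95% and 9.46% of 9048 genes tested did. The median log2 fold was 0.07, beside -0.03 for all genes. The member share was 2.57%, 2.63%, 2.52% and 2.67% in cycling and 2.39%, 2.44%, 2.31% and 2.56% in non-cycling barcodes, higher in 4 of 4 libraries.

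Atp5b was at 632, 653, 654 and 700 CPM in cycling and at 454, 447, 475 and 468 CPM in non-cycling barcodes (log2 fold 0.49, SE 0.045, adjusted p 1.6e-06). In the range of 10000 to 20000 UMIs its log2 fold was 0.22 and it still passed. Ndufa5, a subunit of complex I, rose by 0.51 (adjusted p 7.6e-06) and by 0.36 in that range, where it also passed. Ndufaf2 (log2 fold 0.56, adjusted p 0.00049), Ndufab1, which is also the mitochondrial acyl carrier protein (log2 fold 0.52, adjusted p 1.7e-05), and Sdhd (log2 fold 0.33, adjusted p 0.00078) rose over all barcodes. In the range their log2 folds were 0.11, 0.08 and 0.17, and none of these 3 passed.

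The 5 members that fell in cycling barcodes were Uqcrh, Ndufa6, Cox7a2l, Atp5sl and Ndufa13. Uqcrh was at 721, 781, 676 and 705 CPM in cycling and at 887, 1045, 907 and 966 CPM in non-cycling barcodes (log2 fold -0.43, SE 0.046, adjusted p 6.5e-06). Ndufa6, a subunit of complex I, was at 148, 164, 149 and 152 CPM against 210, 245, 223 and 240 CPM (log2 fold -0.61, SE 0.053, adjusted p 7.7e-07). In both, no library overlapped. In the range of 10000 to 20000 UMIs, Uqcrh had a log2 fold of -0.26, Ndufa6 one of -0.43 and Cox7a2l one of -0.29, and all 3 passed, whereas Atp5sl had -0.35 and did not.

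Cox7a2 and Cox7a2l are paralogs that moved in opposite directions. Cox7a2, the subunit of complex IV in most tissues, was at 559, 621, 506 and 598 CPM in cycling and at 417, 436, 386 and 458 CPM in non-cycling barcodes (log2 fold 0.40, SE 0.046, adjusted p 1.3e-05). Cox7a2l was at 302, 322, 324 and 301 CPM against 407, 448, 454 and 517 CPM (log2 fold -0.57, SE 0.061, adjusted p 6.4e-06). Of the UMIs of this pair, Cox7a2l made up 35.1%, 34.1%, 39.0% and 33.5% in cycling and 49.4%, 50.7%, 54.1% and 53.0% in non-cycling barcodes.

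Groups were compared within a gate by the ratio of member shares to IgG. With 1 library per group there is no test, and the 95% intervals (exact, conditional binomial) cover counting error only. In CD8 T the ratio was 1.042 for Ac (interval 1.038 to 1.047), 0.970 for C (0.965 to 0.975) and 1.063 for aC+C (1.058 to 1.068). Among the 84 members with at least 100 UMIs over both libraries, 54, 40 and 72 had a ratio above 1, and the median ratios of 1.03, 0.987 and 1.07 stood beside 0.968, 1.00 and 0.931 for all genes with as many UMIs. Single members moved little: 0, 1 and 1 of 84 were at least 25% higher or 20% lower than in IgG, where 17.5%, 16.7% and 29.5% of all genes were. Members and all genes were not matched for UMI count, and counting error is larger for genes with few UMIs. Ndufaf7, past the limit in C and in aC+C, had 343 UMIs in IgG, whereas Cox8a had 21268.

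The mt- genes had ratios of 0.872 for Ac, 0.988 for C and 0.932 for aC+C in CD8 T, so the nuclear and the mt- share lay on different sides of 1 in Ac and aC+C. With non-cycling barcodes only, the mt- ratio of aC+C was 1.003 (interval 0.996 to 1.010) beside a member ratio of 1.062. By complex, complex IV had the highest ratio in Ac, 1.07, and complex I in aC+C, 1.08. Summed mesenchymal markers in the CD8 T gate were at 230, 37.0, 460 and 354 CPM and macrophage markers at 80.2, 62.3, 166 and 87.8 CPM in the 4 libraries. The MHC class II genes H2-Aa, H2-Ab1 and Cd74 were at 1790, 191, 1708 and 179 CPM and dendritic markers at 98.7, 18.7, 66.7 and 15.5 CPM, both high in IgG and C and low in Ac and aC+C, the libraries with the higher member share. CD8 genes were at 1360, 1593, 1170 and 1456 CPM. Their part in these ratios was not tested. With cycling barcodes only, the C ratio was 0.957, and with non-cycling ones 0.994.

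In NK the member ratios were 1.01, 0.994 and 1.01. Past those limits were 2 of 82, 2 of 82 and 2 of 81 members, where 11.6%, 13.9% and 19.8% of all genes were. In monocytes or macrophages the ratios were 0.962, 1.01 and 0.977, with 2 of 85, 3 of 84 and 1 of 86 members past those limits, where 18.7%, 29.6% and 24.9% of all genes were. In both gates too, members and all genes were not matched for UMI count. Neutrophil markers in this gate were at 73.0, 70.7, 309 and 406 CPM in the 4 libraries, and their part was not tested.

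The members farthest from IgG included rare assembly factors and isoforms, and also subunits such as Ndufs1, Ndufb2 and Sdhd. Some of these ratios had intervals that held 1, such as Ndufaf5 in Ac in CD8 T (0.815, interval 0.629 to 1.05). Ndufaf7, an assembly factor of complex I, had ratios of 1.34 (C) and 1.33 (aC+C) in CD8 T. Ndufa4 had the second lowest ratio in Ac in CD8 T, 0.872 (interval 0.843 to 0.901), and the lowest in Ac in monocytes or macrophages, 0.779. Cox4i2 had 2.29 in Ac (interval 1.34 to 4.16) and 1.77 in aC+C in monocytes or macrophages. Ndufs6 was among the lowest in C in both gates, at 0.840. C and the other groups share the IgG library, so a high or low IgG value enters all 3 ratios.

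**Figure D5:**
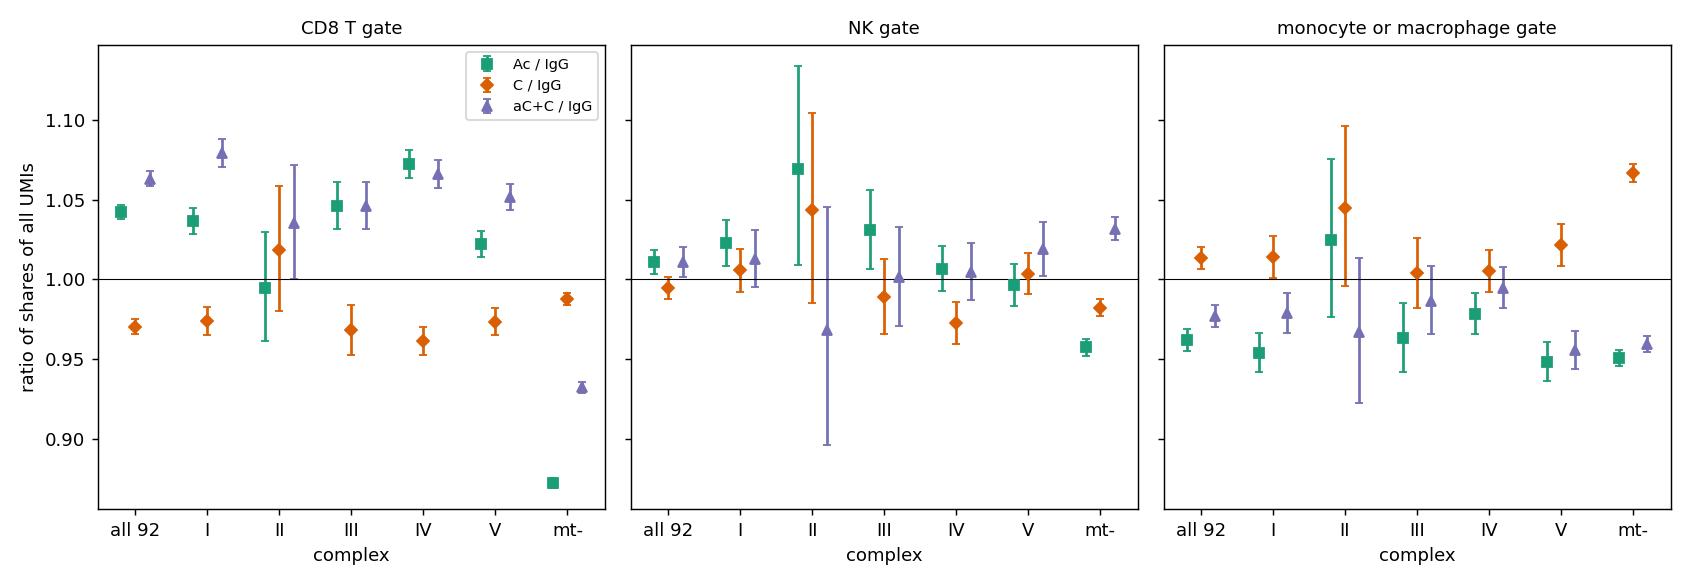
Ratio of the member share to that of the IgG library (vertical axis) by complex for the other 3 groups in 3 gates, with 95% intervals for counting error only. In CD8 T the ratios over all members were 1.04, 0.970 and 1.06.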

How the data were processed

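Per the labels' protocols, libraries were made with 10x Genomics 3′ reagents, version v2. Each deposited barcode list holds 6794880 barcodes, the length of the v3 list, so labels and files disagree on the version. Reads were processed with Cell Ranger 2.1.1 on mm10, per the submitters' processing notes, although version 3.0.2 is the one in the file headers. What annotation was used is not given in the sources used here. What the authors deposited are unfiltered matrices of raw UMI counts, and the deposited barcode and gene lists (other: names, not values) give their columns and rows. The libraries total 61519049 (IgG), 65973242 (Ac), 75665201 (C) and 75067320 (aC+C) UMIs. Counts come from transcript ends, so levels are compared between gates, not between genes. Reads of near-identical copies can be split or lost.

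Barcodes were gated by summed marker CPM (UMIs per 1000000 of the barcode): CD8 T needed CD3 and CD8 genes at 100 each, no Cd4 or Foxp3 UMI and macrophage genes under 2000; NK needed NK genes at 100; monocyte or macrophage needed 2000; mesenchymal needed 1000 and no Ptprc UMI. Cycling meant 200 CPM or more of its list and non-cycling under 50. Barcodes in more than 1 gate (0 to 8 per library) were left out; doublets were otherwise removed only as an alternative. Sums per gate and library were tested with edgeR 4.0.16 in R 4.3.3, with filterByExpr and the library as a block, and DESeq2 1.42.0 was an alternative. The fit was first run on simulated counts. These held no differences between libraries other than their totals, so that run cannot show how the fit handles such differences. Named members were a set of core or catalytic subunits with Ndufa9, Cox4i1 and Cox5a, the isoform sets, the 3 largest called changes in each direction, the largest in each complex, and the 2 highest and lowest ratios per group; other members are named to complete a small count or a comparison. The members, lists and tests were chosen with earlier results of these data known.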

Additional observations from a re-analysis of the deposited data

How the results depend on the processing

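Treatment groups could not be compared in pairs, because each group has 1 library and the labels carry no replicate numbers. Gates were compared within libraries, with the library as the block. The total of members called in NK against CD8 T was 16; it was 53 without TMM, 10 without the library block, and 8 to 19 when single libraries were left out. For cycling CD8 T barcodes it was 49, and 29 without the library block, 26 with barcodes of 10000 to 20000 UMIs (chosen after seeing the data) and 37 to 47 without single libraries. In the other comparisons it was 46 to 54 of a main 57 (monocytes or macrophages) and 60 to 65 of 68 (mesenchymal) without single libraries. Atp5a1 changed sign with non-cycling barcodes in monocytes or macrophages (log2 fold 0.084), and without TMM in NK (-0.050) and in the mesenchymal gate (0.034). Atp5sl changed sign in NK with non-cycling barcodes (-0.013). The settings with cycling or non-cycling barcodes only were also chosen after seeing the data. Beyond what each setting leaves out, the cause was not tested.

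The ratio of member shares for Ac in CD8 T, 1.04, was 1.047 without the highest Scrublet doublet scores, 1.051 without mt- and ribosomal protein genes in the total and 1.055 with non-cycling barcodes. The C ratio in CD8 T, 0.970, was 0.983 without those genes, 0.957 with cycling and 0.994 with non-cycling barcodes. The aC+C ratio, 1.063, was 1.069 with at least 5000 UMIs, 1.091 without those genes and 1.045 with cycling barcodes. In monocytes or macrophages C, 1.013, was 1.021 without the highest doublet scores and 1.046 without those genes, and aC+C, 0.977, was 0.989 without those genes. Of the other values, 107 for whole comparisons and 911 for single genes kept direction and side of the threshold, or stayed within their error. Among single genes 62 no longer passed, 14 newly passed and 24 moved. Depth limits what can be said of minor isoforms: taking 3 counts as the limit, 0 UMIs allow up to 0.133 CPM in NK and up to 0.615 CPM in the dendritic gate.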

Other observations

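Other lists of mitochondrial and ribosomal genes were described beside the members, by counts only. In cycling CD8 T barcodes 9 of 13 genes of the citric acid cycle rose and 0 fell, as did 9 of 10 carriers and shuttles, and 50 of 76 genes of the mitochondrial ribosome rose and 5 fell, where 22.0% of all genes rose and 18.4% fell. Fh1, the fumarase, had a log2 fold of 0.73 (SE 0.10), Cs, the citrate synthase, 0.44 (SE 0.08), and Vdac1, a channel of the outer membrane, 0.59 (SE 0.06). In the range of 10000 to 20000 UMIs 2 genes of the citric acid cycle rose and 1 fell, and 10 genes of the mitochondrial ribosome rose and 7 fell, where 12.95% of all genes rose and 9.46% fell. Proteins of the cytosolic ribosome went the other way, with 10 of 103 higher and 56 lower over all barcodes, and 0 of 99 higher and 80 lower in that range.

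In monocytes or macrophages 41 of 76 genes of the mitochondrial ribosome and 8 of 16 biogenesis regulators were lower than in CD8 T, and 6 and 3 were higher, where 37.6% of all genes were lower and 36.5% higher. Tfam, which packages mitochondrial DNA, fell by 1.15 (SE 0.10) and Idh3a, of the citric acid cycle, by 1.18 (SE 0.07). Esrra, a nuclear receptor that acts on respiratory genes, was higher (log2 fold 0.93, SE 0.09), as was Vdac1 (log2 fold 0.53, SE 0.06). Of the cytosolic ribosomal proteins 90 of 106 were lower and 6 higher. These values cover all barcodes, and the cycling part was larger in CD8 T, as given above. In cycling against non-cycling CD8 T barcodes the log2 fold was 0.30 for Tfam, 0.48 for Idh3a and 0.59 for Vdac1. In NK 83 of 103 cytosolic ribosomal proteins were higher and 4 lower, where 2336 of all 11699 genes tested were higher and 2325 lower. This count was made with TMM, and a count without TMM is not given. Without TMM the median of all genes in NK was lower, as given above, so the count depends on that scaling. Gpd2, of the glycerol phosphate shuttle, fell in NK by 1.10 (SE 0.07), and Slc25a4, an ADP and ATP carrier, by 0.59 (SE 0.05). In the mesenchymal gate the carriers parted, with Slc25a4 higher (log2 fold 1.22, SE 0.05) and Slc25a5 lower (log2 fold -1.32, SE 0.05).

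Over 32 sums of 8 gate or cycling classes and 4 libraries, the gene outside the rule whose log2 CPM followed the summed members most closely was Snrpe (Pearson r 0.916), then Psmb3 (0.907), Magoh (0.891), Hdac1 (0.878) and Snrpg (0.859), among 5507 genes. The sums share libraries and barcodes, so r is a description. Of 80 members with at least 10 UMIs in every sum, 75 had an r above 0 with the summed members, of which they are part, with a median of 0.450, and the median of all genes was 0.083. The highest was Atp5j2 (0.909) and the lowest were Ndufa6 (-0.31) and Sdhd (-0.24).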
